A study of Mus musculus with 20 samples.

Results

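Plasma cells of the small intestine were compared between ZT12, the end of the light phase, and ZT6, its middle. Zeitgeber time (ZT) is the number of hours since the lights came on, in a cycle of 12 hours of light and 12 of darkness. Both times fall within the rest phase of a nocturnal animal, and ZT12 is the moment of lights off. The members are all genes of the count table in the 10 libraries of these times, 5 from ZT12 and 5 from ZT6, out of 20 libraries taken at ZT0, ZT6, ZT12 and ZT18. All came from wild-type C57BL/6 mice with no treatment named in the labels, 1 animal per library, and the labels were silent on their age and sex. Cells were released from the gut wall by enzymatic digestion at 37 °C, sorted on CD138 and IgA, and sequenced in bulk from poly-T selected RNA. In the study's flow cytometry, cells of this gate were first cleared of cells carrying T, NK and B lineage markers. In bulk RNA fewer cells of a type and less RNA per cell cannot be told apart.

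Plasma cells are the end stage of B cell development and devote most of their messenger RNA to antibody. The bulk of this protein passes through the endoplasmic reticulum (ER), so these cells depend on ER chaperones, the unfolded protein response, amino acid supply and the proteasome. In nocturnal rodents, glucocorticoid hormone and body temperature rise towards lights off, and the clock inside each cell turns over a loop in which CLOCK and BMAL1 drive the Per and Cry genes through E-boxes. The comparison asks how the transcripts of these cells at lights off stood against those 6 hours earlier. Each library is a separate animal, so p-values measure the spread between animals.

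The 10 libraries held 35570619 to 68018407 counts each. Antibody genes (immunoglobulin segments and Jchain) took 67.7, 66.1, 63.7, 61.8 and 64.7% of the counts in the ZT12 libraries, against 63.9, 61.7, 61.7, 62.7 and 64.4% in the ZT6 libraries. The groups overlapped, and the means differed by 1.93 percentage points (exact permutation test, two-sided, p = 0.135). Without ZT12 replicate 4, the lowest ZT12 library, the difference was 2.67 points (exact permutation test, p = 0.0397). Leaving out the lowest ZT12 library can only widen the difference. The other runs that each left out 1 library gave 1.22 to 2.31 points (exact permutation test, p = 0.103 to 0.270). The sorted cells carried the markers of their label: Sdc1, which encodes CD138, averaged 732 ± 18.5 CPM at ZT12 and 775 ± 51.7 CPM at ZT6 (SD, n = 5 each), and Xbp1, a transcription factor of secretory cells, averaged 1981 ± 91.8 CPM at ZT12 and 1908 ± 40.3 CPM at ZT6. CPM here is a gene's count relative to library size after scaling by TMM, a method that sets the typical gene equal between libraries. Among the marker lists of other cells, the sums of B cells, of granulocytes and mast cells and of stromal and endothelial cells differed between the times (exact permutation test, two-sided, adjusted p = 0.0238 for each over 9 lists). B cell markers summed to 16.1 to 17.0 CPM at ZT12 and to 18.5 to 21.8 CPM at ZT6. The granulocyte and mast cell sum and the stromal and endothelial sum were each made up mostly of 1 gene: Prg2 (97.4 against 80.6 CPM, ZT12 against ZT6) and Pecam1 (23.9 against 32.6 CPM). The defining markers Pax5 of B cells, Mcpt2 of mast cells and Kdr of endothelium were at or near 0 in the same libraries, with means of 0.125, 0 and 0.00288 CPM at ZT12 and 0.104, 0 and 0 CPM at ZT6. Paneth and goblet cell markers summed to 7.19 to 21.4 CPM at ZT12 and to 7.79 to 77.0 CPM at ZT6, highest in ZT6 replicate 4, and did not pass (exact permutation test, adjusted p = 0.722). Macrophage and dendritic cell markers summed to 101.9 to 117.8 CPM at ZT12 and to 79.8 to 118.1 CPM at ZT6. That difference did not pass (exact permutation test, adjusted p = 0.179). These markers included Lyz2 (19.2 against 17.8 CPM, ZT12 against ZT6) and Csf1r (18.7 against 17.6 CPM). Epcam of the enterocyte list had 52.7 against 49.6 CPM and Cd4 of the T cell list 23.5 against 25.4 CPM. Whether genes reported below at such levels came from plasma cells was not tested.

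Of 13967 genes tested, 640 differed between ZT12 and ZT6, or 4.58% (edgeR quasi-likelihood test, Benjamini-Hochberg adjusted p under 0.01). At ZT12, 327 genes were higher (2.34%) and 313 lower (2.24%). The 5 libraries of ZT12 lay wholly apart from the 5 of ZT6 for 1111 genes (7.95%). These shares are the background for each gene group below. The changes were small: the median fold of the 640 genes was 1.27, 98 reached 1.5-fold and 21 reached 2-fold, 11 of them higher and 10 lower. The split between higher and lower depended on the scaling. With library totals in place of TMM, the median log2 fold change of all genes was -0.13, and 41 genes were higher and 706 lower. Changes are therefore given relative to the typical gene, whose level TMM holds equal.

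**Figure D1:**
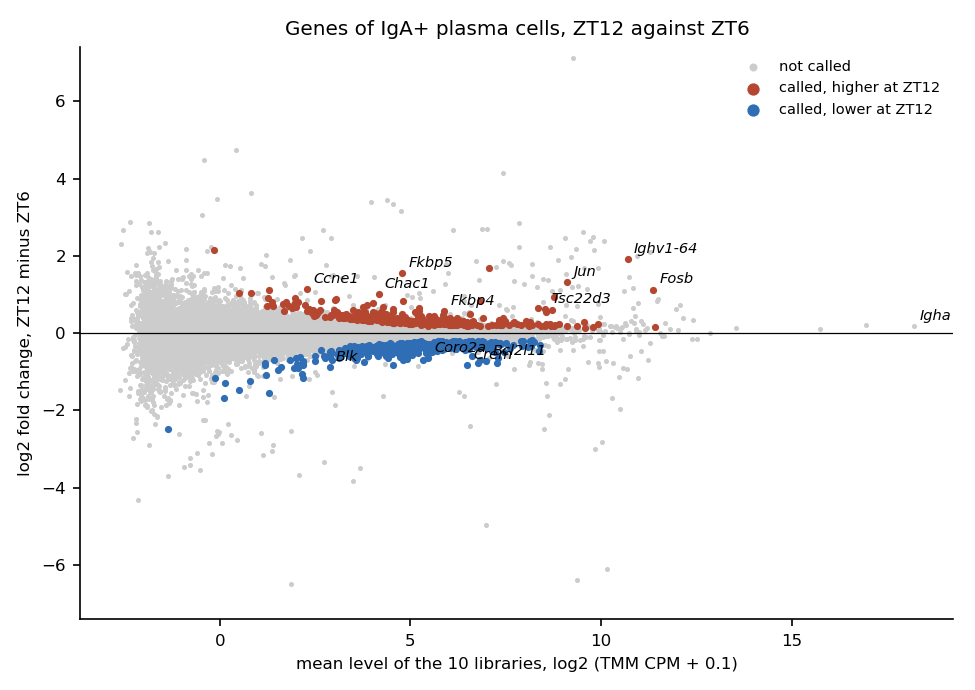
Log2 fold change, ZT12 minus ZT6, against the mean level of each of the 13967 genes tested, log2 (TMM CPM + 0.1). Red points are the 327 genes called higher at ZT12 and blue points the 313 called lower; most lie within a 2-fold change, and Fkbp5, Jun and Fosb are among the 11 higher genes beyond it.

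Outside the antibody genes, the highest fold change among the called genes that met the naming limits was that of Fkbp5, a co-chaperone of the glucocorticoid receptor that glucocorticoids induce. Fkbp5 had 61.6, 45.4, 44.9, 32.4 and 20.3 CPM in the ZT12 libraries, against 13.3, 16.1, 14.7, 13.2 and 12.7 CPM in the ZT6 libraries. All 5 ZT12 libraries lay above all 5 ZT6 libraries, and they spread widely while the ZT6 libraries stayed close together (log2 fold change 1.55, SE 0.20, adjusted p = 0.000157). Tsc22d3, which encodes the glucocorticoid-induced leucine zipper, had 490.3, 441, 433, 454 and 422 CPM in the ZT12 libraries, against 310.1, 302, 289, 291 and 263 CPM in the ZT6 libraries. Its groups did not overlap and its spread was narrow in both (log2 fold change 0.62, SE 0.07, adjusted p = 4.05e-06). Per1, a clock gene that glucocorticoids also induce, was the third member of this list to rise. Of the list of the glucocorticoid receptor and its induced genes, 3 rose, 1 fell and 12 did not pass, out of 16 tested, with a median log2 fold change of 0.17 beside -0.00282 over all genes. The member that fell was Mt1, a zinc-binding metallothionein, with 8.31 ± 0.997 CPM at ZT12 and 12.5 ± 1.53 CPM at ZT6 (SD, n = 5 each; log2 fold change -0.59, SE 0.11, adjusted p = 0.000412). Its neighbour Mt2, which is similar in sequence and may share reads with it, had 4.16 ± 0.882 CPM at ZT12 and 5.67 ± 1.00 CPM at ZT6 and did not pass (adjusted p = 0.0313). Ddit4 and Sgk1, further induced genes, had log2 fold changes of 0.39 and 0.22 with adjusted p = 0.0305 and 0.244, and Nr3c1, the receptor itself, had 95.2 ± 8.97 CPM at ZT12 and 88.3 ± 5.23 CPM at ZT6 (adjusted p = 0.343). The calls of Fkbp5, Tsc22d3 and Mt1 remained when any 1 of the 10 libraries was left out.

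The promoter of Fkbp5 is shown because this gene heads the list and holds an E-box, the CACGTG motif through which the clock activators act. The stretch is the 250 bases before the start of the gene in RefSeq (GRCm38.p6, chr17:28486150-28486399, minus strand), with the motif in capitals. CACGTG reads the same on both strands, and 7.15% of all 32851 promoter windows of 300 bases hold it.
Fkbp5: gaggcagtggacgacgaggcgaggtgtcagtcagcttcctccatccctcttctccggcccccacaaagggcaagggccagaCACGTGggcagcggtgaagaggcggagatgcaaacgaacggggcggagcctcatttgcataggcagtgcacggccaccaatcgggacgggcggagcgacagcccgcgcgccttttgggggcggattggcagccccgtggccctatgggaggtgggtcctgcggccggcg

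**Figure D2:**
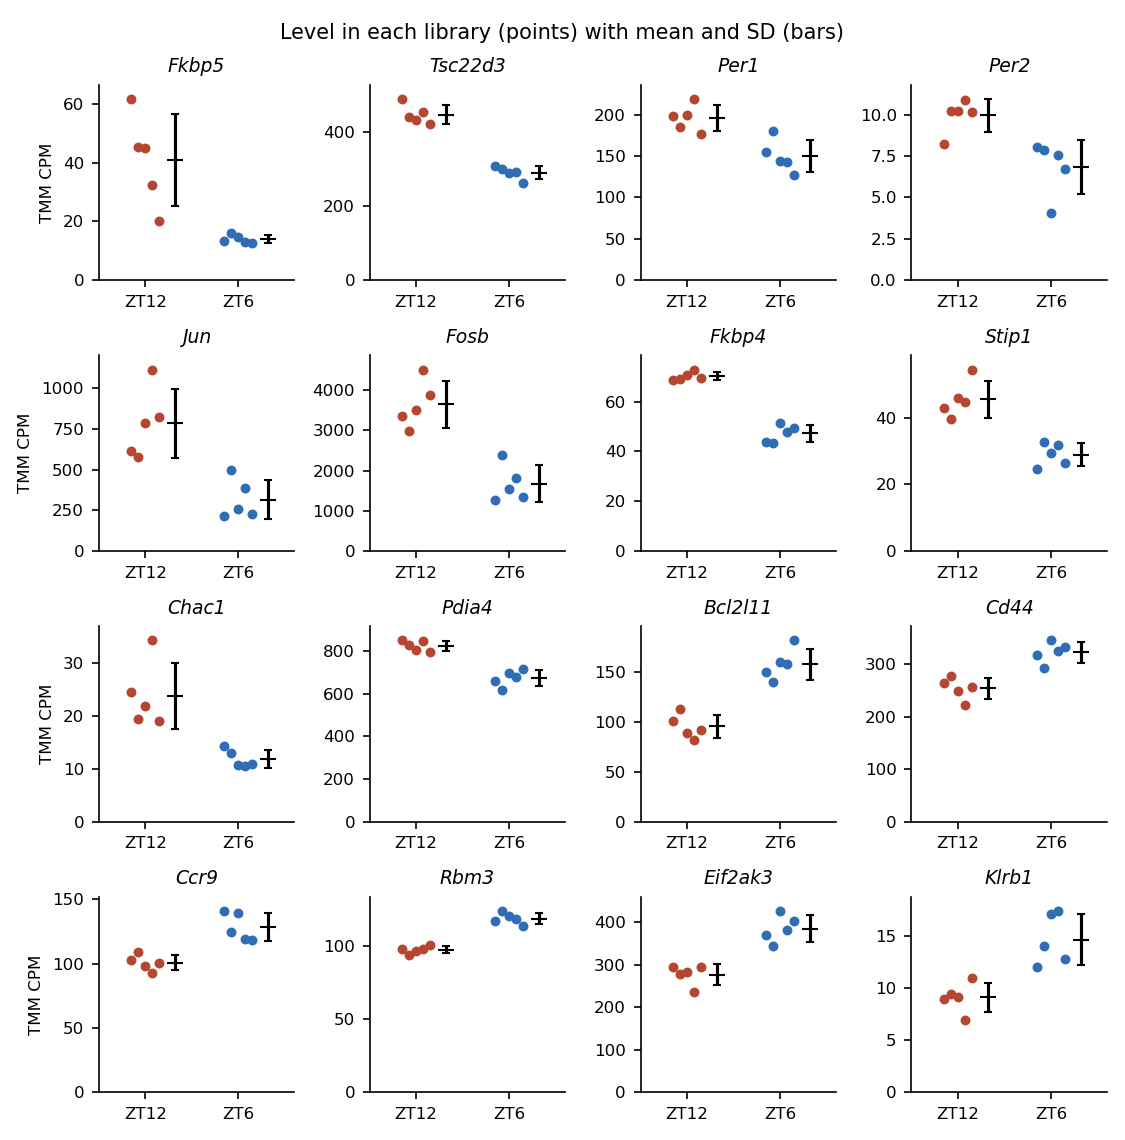
TMM CPM of 16 named genes in each ZT12 library (left, red) and each ZT6 library (right, blue), with the mean and SD of 5 libraries as black bars. The groups are apart for each gene shown other than Per1, whose lowest ZT12 library (177 CPM) lies below the highest ZT6 library (179.7 CPM).

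Of the clock genes, Per1 and Per2 were higher at ZT12. These encode the period proteins, the repressor arm of the loop. Per1 had 198, 186, 199.6, 219 and 177 CPM in the ZT12 libraries, against 155, 179.7, 144, 143 and 127 CPM in the ZT6 libraries. The groups met at the edge (log2 fold change 0.39, SE 0.08, adjusted p = 0.00166). Per2 had 8.25, 10.2, 10.2, 10.9 and 10.2 CPM in the ZT12 libraries, against 8.02, 7.83, 4.05, 7.54 and 6.71 CPM in the ZT6 libraries. Its groups did not overlap, and ZT6 replicate 3 was the lowest of the 10 (log2 fold change 0.54, SE 0.13, adjusted p = 0.00829). Of the clock genes under E-box or D-box control, 2 rose, 0 fell and 9 did not pass, out of 11 tested. Those that did not pass included Nr1d1, a repressor of Arntl (3.50 ± 0.589 CPM at ZT12 and 3.34 ± 0.415 CPM at ZT6, SD, n = 5 each; adjusted p = 0.867), Dbp (adjusted p = 0.508), Tef (adjusted p = 0.171), Ciart (adjusted p = 0.363), Per3 (adjusted p = 0.935), Cry2 (adjusted p = 0.995), Bhlhe40 (adjusted p = 0.477) and Bhlhe41 (adjusted p = 0.0487). Nr1d2, the paralogue of Nr1d1, had 46.3 ± 3.29 CPM at ZT12 and 58.9 ± 5.40 CPM at ZT6, with no overlap between the groups and a log2 fold change of -0.35 that missed the threshold (adjusted p = 0.0245). None of the 4 genes tested that answer to ROR elements passed in edgeR; 2 had an unadjusted p under 0.05, and DESeq2 called 2. Arntl, which encodes BMAL1, had 5.49 ± 1.34 CPM at ZT12 and 6.06 ± 0.843 CPM at ZT6 (adjusted p = 0.534), Clock had 14.8 ± 1.47 CPM at ZT12 and 11.5 ± 1.35 CPM at ZT6 (adjusted p = 0.0101), Cry1 had 10.7 ± 1.16 CPM at ZT12 and 10.6 ± 4.13 CPM at ZT6 (adjusted p = 0.959) and Nfil3, a repressor at D-boxes, had 20.6 ± 3.82 CPM at ZT12 and 30.7 ± 4.48 CPM at ZT6 (adjusted p = 0.0219). In the 10 runs that each left out 1 library, the call was lost for Per2 (7 runs, adjusted p up to 0.0257 without ZT12 replicate 4).

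Per1 is shown as the clock gene that rose and has an entry in the promoter table, from the RefSeq window (GRCm38.p6, chr11:69098699-69098948, plus strand) with its E-box in capitals. Of the 13 clock genes with an entry, 5 hold an E-box in the 300 bases (Bhlhe41, Ciart, Cry1, Per1 and Tef), and of these only Per1 was called.
Per1: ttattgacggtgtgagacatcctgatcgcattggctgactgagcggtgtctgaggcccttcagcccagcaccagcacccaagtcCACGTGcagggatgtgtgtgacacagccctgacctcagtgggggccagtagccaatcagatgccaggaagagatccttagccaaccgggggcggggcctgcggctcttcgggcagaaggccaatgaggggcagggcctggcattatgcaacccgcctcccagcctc

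Immediate early genes, which cells switch on within minutes of a signal, were among the genes that rose. Fosb, an AP-1 subunit, had 3357, 2977, 3508, 4507 and 3874 CPM in the ZT12 libraries, against 1268, 2388, 1529, 1825 and 1338 CPM in the ZT6 libraries. Fosb differed by log2 1.13 (SE 0.19, adjusted p = 0.00136). Jun, its partner in AP-1, had 612, 578, 789.7, 1115 and 827 CPM in the ZT12 libraries, against 216, 498, 257, 384 and 226 CPM in the ZT6 libraries. Jun differed by log2 1.31 (SE 0.27, adjusted p = 0.00536). Neither gene overlapped between the times. Klf6, a zinc finger factor, had 397 ± 29.97 CPM at ZT12 and 251 ± 24.5 CPM at ZT6 (SD, n = 5 each; log2 fold change 0.66, SE 0.11, adjusted p = 0.00128). Atf3, a stress-responsive factor, had 22.5 ± 1.75 CPM at ZT12 and 15.3 ± 2.06 CPM at ZT6 (log2 fold change 0.55, SE 0.12, adjusted p = 0.00607). Of the list, 4 rose, 0 fell and 20 did not pass, out of 24 tested, and its median log2 fold change was 0.48. Further members were apart between the groups or nearly so without passing: Fos had 448 to 859 CPM at ZT12 and 193 to 446 CPM at ZT6 (adjusted p = 0.0203), Junb 192 to 290.3 CPM at ZT12 and 131 to 179 CPM at ZT6 (adjusted p = 0.0334) and Ier2 89.5 to 131 CPM at ZT12 and 63.9 to 94.1 CPM at ZT6 (adjusted p = 0.0394). Nr4a1 did not pass with a log2 fold change of -0.22 (adjusted p = 0.523). Summed over the list, the level was 8246, 7621, 8671, 11011 and 9048 CPM in the ZT12 libraries, against 4404, 6922, 5017, 5709 and 4853 CPM in the ZT6 libraries, with no overlap. Per transcript length, in the deposited FPKM, Fosb averaged 916 ± 198 FPKM at ZT12 and 457 ± 137 FPKM at ZT6 and Jun 233 ± 78.7 FPKM at ZT12 and 102 ± 42.0 FPKM at ZT6. Heat shock RNA was also higher in the ZT12 libraries, as given below, and its part in this difference was not tested. Of the 10 runs with 1 library left out, some lost the call of Jun (6 runs, adjusted p up to 0.0167 without ZT6 replicate 5) and Atf3 (8 runs, adjusted p up to 0.0191 without ZT6 replicate 1). With DESeq2 8 members were higher.

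The promoter of Jun holds 1 match to GAANNTTC, the core of the heat shock element, which occurs in 7.86% of all promoter windows. It is shown because both this gene and heat shock genes were higher at ZT12, with the match in capitals (RefSeq, GRCm38.p6, chr4:95052223-95052472, minus strand). The same windows were searched on both strands for the D-box (TTATGTAA, in 0.938% of all windows), the cAMP response element (TGACGTCA, 1.79%) and an NF-kappaB site (GGAANTTCC, 0.928%). Among the 12 highest genes, Maff holds a cAMP response element and an E-box, Usp31 an E-box and Dusp6 an NF-kappaB site, and of the clock genes Per3 holds a D-box. Among the 12 lowest genes, Etl4 and Rhobtb1 hold an E-box and Cdc14b a cAMP response element. A match of letters is not evidence of binding.
Jun: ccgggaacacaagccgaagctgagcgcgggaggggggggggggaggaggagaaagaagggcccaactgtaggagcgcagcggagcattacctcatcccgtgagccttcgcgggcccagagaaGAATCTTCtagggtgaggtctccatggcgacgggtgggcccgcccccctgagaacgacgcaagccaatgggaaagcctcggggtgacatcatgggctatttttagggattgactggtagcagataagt

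Heat shock proteins are chaperones that cells make when proteins unfold, and most are driven by the factor HSF1 through heat shock elements. The sum over the list was 2098, 2225, 3658, 3749 and 7317 CPM in the ZT12 libraries, against 987, 1681, 1707, 2457 and 1152 CPM in the ZT6 libraries. The groups overlapped, and ZT12 replicate 5 stood far above the rest (mean log2 difference 1.17, exact permutation test, two-sided, p = 0.0238). Without that library the difference was 0.90 (exact permutation test, p = 0.0317). Of the list, 5 rose, 0 fell and 16 did not pass, out of 21 tested, with a median log2 fold change of 0.73. The members called higher were partners of HSP90 and HSP70, while 19 of the 21 tested had a positive log2 fold change. Fkbp4, an HSP90 co-chaperone that also binds steroid receptors, had 68.5, 69.2, 70.7, 72.8 and 69.4 CPM in the ZT12 libraries, against 43.7, 43.5, 51.6, 47.8 and 49.4 CPM in the ZT6 libraries. Its libraries lay close together at both times (log2 fold change 0.57, SE 0.06, adjusted p = 2.43e-08). Stip1, which links HSP70 to HSP90, had 43.0, 39.6, 45.8, 44.7 and 54.4 CPM in the ZT12 libraries, against 24.6, 32.7, 29.4, 31.7 and 26.4 CPM in the ZT6 libraries. Stip1 differed by log2 0.65 (SE 0.10, adjusted p = 0.00036). Chordc1, an HSP90-binding protein, had 23.1 ± 1.48 CPM at ZT12 and 17.0 ± 1.43 CPM at ZT6 (SD, n = 5 each; log2 fold change 0.44, SE 0.07, adjusted p = 0.00015). Ahsa1, the activator of the HSP90 ATPase, had 26.5 ± 3.77 CPM at ZT12 and 20.2 ± 1.73 CPM at ZT6 (log2 fold change 0.39, SE 0.08, adjusted p = 0.00168). Dnajb4, an HSP70 partner, had 28.3 against 18.4 CPM at ZT12 against ZT6 (log2 fold change 0.62, adjusted p = 0.00665). Calls lost in some of the 10 runs without 1 library were those of Dnajb4 (7 runs, adjusted p up to 0.0206 without ZT6 replicate 1). Larger differences in the inducible members did not pass, and their libraries spread widely. Hspa1a had 19.2, 40.9, 191, 212 and 562 CPM in the ZT12 libraries, against 1.58, 34.0, 20.98, 95.5 and 5.94 CPM in the ZT6 libraries (adjusted p = 0.199). Its near-identical copy Hspa1b, with which it may share reads, had 44.8, 83.1, 361, 401 and 1116 CPM in the ZT12 libraries, against 2.55, 62.7, 41.0, 160.0 and 10.3 CPM in the ZT6 libraries (adjusted p = 0.17). Hspa8, the constitutive HSP70, was apart between the groups (534 to 1299 CPM at ZT12 and 198 to 452 CPM at ZT6) and just missed the threshold (log2 fold change 1.31, adjusted p = 0.0109), and Hsp90ab1, likewise apart, did not pass (547 to 987 CPM at ZT12 and 303 to 532 CPM at ZT6, adjusted p = 0.0195). Without ZT12 replicate 5 and ZT6 replicate 4, the libraries with the highest sum at each time, 4 members were called higher, among 188 genes in all.

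Heat shock elements were common in the promoters of this list: GAANNTTC was in 54.2% of the 24 windows of the 17 members with an entry in the RefSeq table, against 7.86% of all promoter windows. Most genes of this list are known to be driven through the element, so its share does not bear on ZT12 against ZT6. The core reads the same on both strands. The called members that hold it are Chordc1, where it spans the start of the gene, and Fkbp4. Fkbp4, chosen after its values were seen, is shown with the match in capitals (GRCm38.p6, chr6:128438657-128438906, minus strand). Hspa1a, Hspa1b, Hsph1, Dnaja1, Bag3, Dnajb6, Hspb1, Hspd1 and Hspe1, which did not pass, hold it as well.
Fkbp4: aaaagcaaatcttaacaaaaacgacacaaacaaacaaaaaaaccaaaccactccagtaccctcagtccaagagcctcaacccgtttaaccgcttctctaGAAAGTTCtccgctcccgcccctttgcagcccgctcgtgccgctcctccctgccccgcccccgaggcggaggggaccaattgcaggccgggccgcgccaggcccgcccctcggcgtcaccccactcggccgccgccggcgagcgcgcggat

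**Figure D3:**
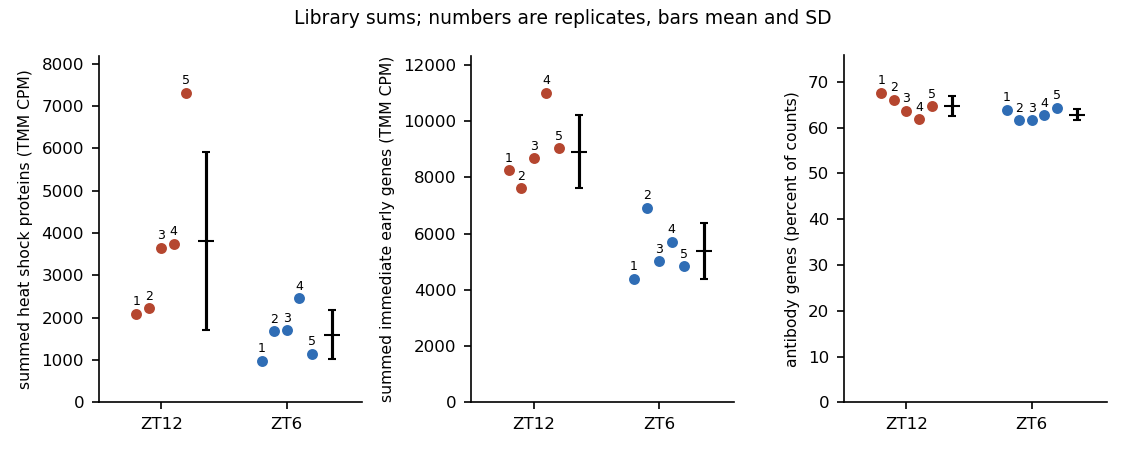
Summed TMM CPM of heat shock proteins (left) and of immediate early genes (middle), and antibody genes as percent of counts (right), in each ZT12 library (red) and each ZT6 library (blue). Digits are replicate numbers and black bars mean and SD of 5 libraries; the immediate early sums are apart between the times, while ZT12 replicate 5 leads the heat shock sums with 7317 CPM.

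In the secretory apparatus, several ER chaperones rose and 2 stress sensors fell. Pdia4, a disulfide isomerase of the ER, had 850.1, 831, 805, 846 and 798 CPM in the ZT12 libraries, against 659, 619, 698, 679 and 715 CPM in the ZT6 libraries. Pdia4 differed by log2 0.29 (SE 0.04, adjusted p = 1.61e-05). Creb3l2, a membrane-bound transcription factor of secretory cells, had 287 ± 14.4 CPM at ZT12 and 233 ± 9.90 CPM at ZT6 (SD, n = 5 each; log2 fold change 0.30, SE 0.05, adjusted p = 4.14e-05). P4hb (465 against 411 CPM, ZT12 against ZT6), Calr (1049 against 893 CPM) and Canx (179 against 156 CPM), an isomerase and 2 lectin chaperones of the ER, were higher with log2 fold changes of 0.18, 0.23 and 0.20. Ppp1r15a, the phosphatase subunit that restores translation after stress, had 188 ± 5.19 CPM at ZT12 and 157 ± 5.68 CPM at ZT6 (log2 fold change 0.26, SE 0.05, adjusted p = 0.000526). By contrast, Eif2ak3, which encodes the ER stress kinase PERK, had 294, 279, 283, 235 and 294 CPM in the ZT12 libraries, against 369.6, 345, 426, 381 and 404 CPM in the ZT6 libraries. Eif2ak3 differed by log2 -0.48 (SE 0.07, adjusted p = 0.00015). All ZT12 libraries lay below all ZT6 libraries. Atf6, another sensor, was also lower (301 against 375 CPM, log2 fold change -0.32, adjusted p = 0.00408), while Ern1, which encodes the sensor IRE1, had 142 ± 4.57 CPM at ZT12 and 154 ± 10.1 CPM at ZT6 and did not pass (adjusted p = 0.151). Of the unfolded protein response and ER chaperone list, 7 rose, 2 fell and 23 did not pass, out of 32 tested, with a median log2 fold change of 0.10. Hspa5, the HSP70 of the ER, had 4304 ± 251.8 CPM at ZT12 and 4040.0 ± 432 CPM at ZT6 (adjusted p = 0.401). Of the translocation and N-glycosylation list, 3 rose, 1 fell and 28 did not pass, out of 32 tested. The catalytic subunits of the oligosaccharyltransferase moved in opposite directions: Stt3a had 206 ± 8.54 CPM at ZT12 and 178 ± 10.7 CPM at ZT6 (log2 fold change 0.21, adjusted p = 0.00503) and Stt3b had 149 ± 11.5 CPM at ZT12 and 180.1 ± 17.0 CPM at ZT6 (log2 fold change -0.27, adjusted p = 0.00322). Rpn2 and Srp72 rose by log2 0.19 and 0.19. Scaled by library totals, 0 members of the unfolded protein response list were higher, and without ZT12 replicate 5 and ZT6 replicate 4 there were 4. Leaving out each of the 10 libraries in turn ended the call of Canx (8 runs, adjusted p up to 0.0444 without ZT12 replicate 5), Atf6 (5 runs, adjusted p up to 0.0146 without ZT6 replicate 1), Stt3a (5 runs, adjusted p up to 0.0286 without ZT12 replicate 1), Stt3b (3 runs, adjusted p up to 0.0181 without ZT6 replicate 5), Rpn2 (2 runs, adjusted p up to 0.0175 without ZT12 replicate 5) and Srp72 (8 runs, adjusted p up to 0.0285 without ZT6 replicate 4) in the number of runs given.

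Genes of the amino acid response, which the factor ATF4 drives when amino acids run short or eIF2 is phosphorylated, included 4 that rose. Chac1, an enzyme that breaks down glutathione and a known ATF4 target, had 24.5, 19.3, 21.9, 34.3 and 19.0 CPM in the ZT12 libraries, against 14.3, 12.9, 10.7, 10.5 and 10.9 CPM in the ZT6 libraries. Its groups did not overlap, with ZT12 replicate 4 the highest, and its call lay close to the threshold (log2 fold change 1.01, SE 0.23, adjusted p = 0.00986). Sesn2, a leucine sensor upstream of mTOR, had 13.6 ± 0.698 CPM at ZT12 and 9.998 ± 1.18 CPM at ZT6 (SD, n = 5 each; log2 fold change 0.45, SE 0.09, adjusted p = 0.00188). Atf5, a stress-responsive factor, had 34.4, 40.0, 42.0, 48.0 and 41.9 CPM in the ZT12 libraries, against 26.1, 34.3, 28.0, 29.7 and 24.1 CPM in the ZT6 libraries. Atf5 differed by log2 0.54 (SE 0.12, adjusted p = 0.00628). Slc3a2, the heavy chain of amino acid transporters, had 477 ± 21.7 CPM at ZT12 and 416 ± 26.2 CPM at ZT6 (log2 fold change 0.20, SE 0.05, adjusted p = 0.00708), and its partner Slc7a5 had 203 ± 12.7 CPM at ZT12 and 169 ± 15.3 CPM at ZT6 (adjusted p = 0.0189). Of the list, 4 rose, 0 fell and 19 did not pass, out of 23 tested, and Atf4 itself had 338 ± 9.27 CPM at ZT12 and 353 ± 18.6 CPM at ZT6 (adjusted p = 0.44). Asns had a log2 fold change of 0.16 (adjusted p = 0.0711) and none of the 20 tested aminoacyl-tRNA synthetases passed in edgeR (8 had an unadjusted p under 0.05, and DESeq2 called 1), with a median log2 fold change of 0.11. Among mTOR regulators, Sesn2 rose and Rictor, a subunit of mTOR complex 2, fell (16.2 ± 1.46 CPM at ZT12 and 22.6 ± 3.89 CPM at ZT6; adjusted p = 0.00411). Eif4ebp1, a target of mTOR complex 1, had 13.6 ± 2.17 CPM at ZT12 and 11.8 ± 0.842 CPM at ZT6 (adjusted p = 0.193). In the 10 runs that each left out 1 library, the call was lost for Chac1 (10 runs, adjusted p up to 0.0302 without ZT12 replicate 4), Atf5 (8 runs, adjusted p up to 0.0208 without ZT6 replicate 1), Slc3a2 (7 runs, adjusted p up to 0.0363 without ZT12 replicate 1) and Rictor (4 runs, adjusted p up to 0.0198 without ZT12 replicate 4).

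The Chac1 promoter holds 1 C/EBP-ATF element (TGATGCAA, here read on the other strand as TTGCATCA), the motif to which ATF4 binds with C/EBP factors. The element is found in 0.895% of all promoter windows, and 1 of the 10 highest genes with an entry (Chac1) and 1 of the 9 lowest (Rhobtb1) hold it. It is shown in capitals (RefSeq, GRCm38.p6, chr2:119350992-119351241, plus strand).
Chac1: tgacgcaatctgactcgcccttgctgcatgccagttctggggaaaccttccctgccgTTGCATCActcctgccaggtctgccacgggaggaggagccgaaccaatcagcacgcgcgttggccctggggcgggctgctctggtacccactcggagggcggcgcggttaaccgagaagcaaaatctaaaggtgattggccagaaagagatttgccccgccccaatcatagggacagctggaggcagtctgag

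Proteasome subunits, which degrade proteins sent back from the ER among others, moved by small steps. Of 37 tested, 7 rose and none fell (median log2 fold change 0.13). Psmd1 had 30.9, 33.7, 30.02, 35.4 and 33.7 CPM in the ZT12 libraries, against 25.2, 24.6, 25.6, 27.9 and 27.3 CPM in the ZT6 libraries (log2 fold change 0.33, SE 0.06, adjusted p = 0.000357), and Psmd12 had 35.9 ± 2.81 CPM at ZT12 and 29.0 ± 1.85 CPM at ZT6 (SD, n = 5 each; log2 fold change 0.31, SE 0.06, adjusted p = 0.000927). Psmc1, Psmd7, Psmd11 and Psmd2 of the regulatory particle rose by log2 0.27, 0.26, 0.24 and 0.21, and Psmb8, a catalytic subunit of the immunoproteasome, by 0.21. Among targets of the oxidant-responsive factor NRF2, Txnrd1, thioredoxin reductase, had 30.4 ± 1.75 CPM at ZT12 and 24.0 ± 2.21 CPM at ZT6 (log2 fold change 0.34, SE 0.07, adjusted p = 0.00077) and Prdx1, a peroxiredoxin, had 69.2 ± 3.75 CPM at ZT12 and 58.8 ± 3.97 CPM at ZT6 (adjusted p = 0.00223). Hmox1, heme oxygenase, was apart between the groups without passing (6.42 to 18.3 CPM at ZT12 and 2.29 to 6.35 CPM at ZT6, adjusted p = 0.0122). The number of proteasome members called higher was 4 without ZT12 replicate 5 and ZT6 replicate 4, 4 without ZT12 replicate 1, and 0 with library totals. Of the 10 runs with 1 library left out, some lost the call of Psmb8 (2 runs, adjusted p up to 0.0157 without ZT12 replicate 1), Psmd2 (8 runs, adjusted p up to 0.0313 without ZT6 replicate 1), Psmd11 (5 runs, adjusted p up to 0.0159 without ZT12 replicate 1) and Prdx1 (2 runs, adjusted p up to 0.0116 without ZT6 replicate 1).

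In metabolism, the calls fell on glycolysis and on fatty acid synthesis. Pfkl, the liver-type phosphofructokinase, had 33.5, 32.3, 33.1, 32.3 and 33.4 CPM in the ZT12 libraries, against 23.8, 26.1, 24.5, 23.5 and 24.6 CPM in the ZT6 libraries, the smallest p of the glycolysis list (log2 fold change 0.42, SE 0.05, adjusted p = 1.53e-06). All ZT12 libraries lay above all ZT6 libraries. Gpi1, Aldoa and Eno1 rose by log2 0.24, 0.21 and 0.28, with Eno1 at 46.2 ± 2.49 CPM at ZT12 and 38.0 ± 3.06 CPM at ZT6 (SD, n = 5 each). Hk2, the hexokinase that starts the pathway, had 26.4 ± 1.54 CPM at ZT12 and 24.7 ± 1.54 CPM at ZT6 (adjusted p = 0.356), and of the list 4 rose, 0 fell and 16 did not pass, out of 20 tested. Fasn, fatty acid synthase, had 94.5 ± 2.84 CPM at ZT12 and 78.4 ± 4.31 CPM at ZT6 (log2 fold change 0.27, SE 0.05, adjusted p = 0.000869). Acly, which makes cytosolic acetyl-CoA, had 63.3 ± 2.25 CPM at ZT12 and 53.9 ± 2.56 CPM at ZT6 (log2 fold change 0.23, SE 0.05, adjusted p = 0.00412). Scd2, a desaturase, had 65.0 ± 5.16 CPM at ZT12 and 52.4 ± 6.28 CPM at ZT6 (log2 fold change 0.31, SE 0.07, adjusted p = 0.00403). Of the fatty acid synthesis list, 3 rose, 0 fell and 14 did not pass, out of 17 tested. Cholesterol genes were nearly all without a call: 1 rose, 1 fell and 23 did not pass, out of 25 tested. Scap, the escort of SREBP, fell (81.7 ± 2.82 CPM at ZT12 and 95.8 ± 6.70 CPM at ZT6). The study looked at metabolism in these samples, so these lists are not independent evidence. For nuclear genes of oxidative phosphorylation, Atp5g1 alone rose of 75 tested (24.5 ± 1.84 CPM at ZT12 and 19.8 ± 1.29 CPM at ZT6) and the median was 0.00. Hadhb, an enzyme of fatty acid oxidation, fell (38.4 ± 3.07 CPM at ZT12 and 46.4 ± 2.97 CPM at ZT6, adjusted p = 0.00145). Calls lost in some of the 10 runs without 1 library were those of Eno1 (3 runs, adjusted p up to 0.0146 without ZT6 replicate 1), Aldoa (6 runs, adjusted p up to 0.0262 without ZT6 replicate 1), Acly (5 runs, adjusted p up to 0.0165 without ZT12 replicate 1), Scd2 (4 runs, adjusted p up to 0.0155 without ZT12 replicate 1), Scap (3 runs, adjusted p up to 0.0194 without ZT6 replicate 5) and Atp5g1 (6 runs, adjusted p up to 0.0328 without ZT12 replicate 1).

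For translation, 6 of 79 tested cytosolic ribosomal protein genes rose and none fell, with a median log2 fold change of 0.12, which was 0.00 with library totals. Of the 79, 72 had a positive log2 fold change with TMM. In edgeR 50 had an unadjusted p under 0.05, beside 3313 of all 13967 genes, and DESeq2 called 21. The groups were apart for 29 of the 79, beside 7.95% of all genes tested. Rps4x had 350.3 ± 14.03 CPM at ZT12 and 296 ± 4.91 CPM at ZT6 (SD, n = 5 each; log2 fold change 0.24, SE 0.04, adjusted p = 0.00036) and Rpsa had 441 ± 4.35 CPM at ZT12 and 390.0 ± 16.6 CPM at ZT6 (adjusted p = 0.00322). Rpl23, Rpl18 and Rplp0 rose by log2 0.22, 0.20 and 0.14. Such genes may share reads with pseudogenes, which was not tested. Eif5b, which joins ribosomal subunits, had 109 ± 2.80 CPM at ZT12 and 88.7 ± 5.07 CPM at ZT6 (log2 fold change 0.30, SE 0.06, adjusted p = 0.00115), and Eef1a1 and Tpt1 rose by log2 0.15 and 0.16. Polr1b, a subunit of RNA polymerase I, was the only ribosome biogenesis gene of 30 to rise (8.59 ± 1.26 CPM at ZT12 and 6.23 ± 0.594 CPM at ZT6). In contrast, the calls among splicing factors were all lower: of the SR and hnRNP list, 0 rose, 5 fell and 25 did not pass, out of 30 tested. The median log2 fold change of this list was -0.08, with 11 members positive and 19 negative. Hnrnpa1 had 126, 128, 136, 125 and 136 CPM in the ZT12 libraries, against 159, 169, 153, 156 and 153 CPM in the ZT6 libraries. Hnrnpa1 differed by log2 -0.28 (SE 0.05, adjusted p = 0.000157). Srsf2 had 64.1 ± 2.87 CPM at ZT12 and 82.4 ± 4.82 CPM at ZT6 (log2 fold change -0.36, SE 0.07, adjusted p = 0.00194), Hnrnpdl 84.3 ± 3.38 CPM at ZT12 and 101 ± 3.04 CPM at ZT6 (log2 fold change -0.26, SE 0.05, adjusted p = 0.000417) and Hnrnpl 110.1 ± 2.70 CPM at ZT12 and 126 ± 3.92 CPM at ZT6 (log2 fold change -0.20, SE 0.04, adjusted p = 0.00303), while Hnrnph1 fell by 0.27 on the log2 scale. The cold-inducible RNA-binding proteins, which rise when cells cool, were both lower. Rbm3 had 97.9, 93.9, 96.4, 97.9 and 101 CPM in the ZT12 libraries, against 117, 124, 120.5, 119 and 113 CPM in the ZT6 libraries. Rbm3 differed by log2 -0.28 (SE 0.05, adjusted p = 0.000228). Cirbp had 44.3, 54.5, 56.2, 49.1 and 45.2 CPM in the ZT12 libraries, against 68.2, 60.5, 56.7, 59.4 and 62.1 CPM in the ZT6 libraries. Cirbp differed by log2 -0.30 (SE 0.07, adjusted p = 0.00298). For both, all ZT12 libraries lay below all ZT6 libraries. Leaving out each of the 10 libraries in turn ended the call of Rpl18 (9 runs, adjusted p up to 0.0286 without ZT12 replicate 4), Rplp0 (9 runs, adjusted p up to 0.0243 without ZT12 replicate 5), Hnrnph1 (7 runs, adjusted p up to 0.0283 without ZT6 replicate 1), Cirbp (3 runs, adjusted p up to 0.0156 without ZT6 replicate 1), Hnrnpl (2 runs, adjusted p up to 0.012 without ZT6 replicate 1), Rpsa (3 runs, adjusted p up to 0.0128 without ZT6 replicate 1), Rpl23 (3 runs, adjusted p up to 0.016 without ZT12 replicate 1), Eef1a1 (8 runs, adjusted p up to 0.0233 without ZT12 replicate 1), Tpt1 (3 runs, adjusted p up to 0.0152 without ZT12 replicate 1) and Polr1b (4 runs, adjusted p up to 0.0211 without ZT12 replicate 4) in the number of runs given.

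Most genes of plasma cell identity did not pass, and of 19 tested 2 rose. Prdm1, which encodes BLIMP1, the master regulator of plasma cells, had 229.9 ± 12.2 CPM at ZT12 and 231 ± 14.4 CPM at ZT6 (SD, n = 5 each; adjusted p = 0.958). Tnfrsf17 and Tnfrsf13b, receptors for the survival factors APRIL and BAFF, had 104 ± 4.603 CPM at ZT12 and 104 ± 1.47 CPM at ZT6 (adjusted p = 0.924) and 319.7 ± 14.7 CPM at ZT12 and 333 ± 13.9 CPM at ZT6 (adjusted p = 0.432), and Cd40 was near the floor (0.772 ± 0.106 CPM at ZT12 and 0.927 ± 0.231 CPM at ZT6, adjusted p = 0.608). Irf4, the factor that drives plasma cell fate, was higher, with 498, 449, 427, 481 and 381 CPM in the ZT12 libraries, against 321, 371, 299, 285 and 268 CPM in the ZT6 libraries. Irf4 differed by log2 0.53 (SE 0.12, adjusted p = 0.0074). Creld2, an ER protein, had 516 ± 39.5 CPM at ZT12 and 436 ± 26.3 CPM at ZT6 (log2 fold change 0.24, SE 0.05, adjusted p = 0.00214). Receptors for survival and homing signals moved both ways: 3 rose, 3 fell and 19 did not pass, out of 25 tested. Cd44, a hyaluronan receptor, had 265, 278, 249.0, 223 and 256 CPM in the ZT12 libraries, against 317, 292, 345, 326 and 333 CPM in the ZT6 libraries. Cd44 differed by log2 -0.34 (SE 0.05, adjusted p = 8.47e-05). Ccr9, the chemokine receptor that brings cells to the small intestine, had 103, 109, 98.5, 92.6 and 100.05 CPM in the ZT12 libraries, against 141, 125, 139, 119 and 119 CPM in the ZT6 libraries. Ccr9 differed by log2 -0.35 (SE 0.06, adjusted p = 0.000223). S1pr4, a receptor for sphingosine phosphate, was also lower (17.0 ± 0.725 CPM at ZT12 and 21.1 ± 2.25 CPM at ZT6, adjusted p = 0.0061). Gpr183, the oxysterol receptor EBI2, was higher (16.2, 17.2, 20.6, 20.2 and 23.6 CPM in the ZT12 libraries, against 11.3, 14.9, 13.7, 14.6 and 13.3 CPM in the ZT6 libraries; log2 fold change 0.53, SE 0.10, adjusted p = 0.000518), as were Tnfrsf13c (log2 fold change 0.27, adjusted p = 0.00726) and Itgb1 (log2 fold change 0.28, adjusted p = 0.00998). Cd69, an activation marker that keeps cells in tissue and was chosen after its values were seen, had 501 ± 39.0 CPM at ZT12 and 333 ± 18.0 CPM at ZT6 (log2 fold change 0.59, SE 0.07, adjusted p = 2.89e-05). Pecam1, an adhesion molecule, had 23.9 ± 1.37 CPM at ZT12 and 32.6 ± 1.98 CPM at ZT6 (log2 fold change -0.45, SE 0.07, adjusted p = 4.04e-05). Of the BCL2 family only Bcl2l11, which encodes the death-promoting protein BIM, was called of 14. It had 101, 113, 89.5, 82.1 and 92.5 CPM in the ZT12 libraries, against 149.9, 140.1, 159.9, 159 and 182 CPM in the ZT6 libraries. Bcl2l11 differed by log2 -0.72 (SE 0.16, adjusted p = 0.0072). All ZT12 libraries lay below all ZT6 libraries. Mcl1, on which plasma cell survival depends, had 535 ± 22.3 CPM at ZT12 and 500.5 ± 14.6 CPM at ZT6 (adjusted p = 0.0896). In the 10 runs that each left out 1 library, the call was lost for Tnfrsf13c (5 runs, adjusted p up to 0.0351 without ZT12 replicate 1), Irf4 (8 runs, adjusted p up to 0.0232 without ZT12 replicate 1), S1pr4 (8 runs, adjusted p up to 0.0298 without ZT6 replicate 4), Itgb1 (9 runs, adjusted p up to 0.072 without ZT12 replicate 1) and Bcl2l11 (9 runs, adjusted p up to 0.0239 without ZT12 replicate 4).

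Antibody transcripts mostly did not pass. Igha, the heavy chain of IgA, had 321308 ± 34951 CPM at ZT12 and 282293 ± 21385 CPM at ZT6 (SD, n = 5 each; adjusted p = 0.23), Igkc 136813 ± 18722 CPM at ZT12 and 118386 ± 10107 CPM at ZT6 (adjusted p = 0.231) and Jchain, which joins IgA into dimers, 57195 ± 5206 CPM at ZT12 and 53553 ± 2459.7 CPM at ZT6 (adjusted p = 0.414). None of 12 tested constant regions was called in edgeR (1 had an unadjusted p under 0.05, and DESeq2 called 0), and 2 of 248 variable segments were: Ighv1-64 had 2892, 2048, 3193, 1619.8 and 3384 CPM in the ZT12 libraries, against 579, 551, 999.8, 736 and 632 CPM in the ZT6 libraries and Igkv3-5 had 188, 212, 337, 112 and 165 CPM in the ZT12 libraries, against 20.3, 82.0, 72.7, 50.3 and 89.9 CPM in the ZT6 libraries. Variable segments may share reads with each other, and they differ between animals with the clones each carries. Of the 10 runs with 1 library left out, some lost the call of Igkv3-5 (7 runs, adjusted p up to 0.0226 without ZT6 replicate 4).

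The 12 highest genes also included Rhob, Arrdc3, Dusp6 and Maff. Rhob, a small GTPase of endosomes, had 521, 473, 579, 678 and 592 CPM in the ZT12 libraries, against 258, 348, 287, 314 and 276 CPM in the ZT6 libraries. Rhob differed by log2 0.94 (SE 0.14, adjusted p = 0.00036). Arrdc3, an arrestin family member, had 143, 129, 142, 154 and 157 CPM in the ZT12 libraries, against 90.0, 84.1, 78.3, 80.8 and 71.7 CPM in the ZT6 libraries. Arrdc3 differed by log2 0.84 (SE 0.09, adjusted p = 1.54e-05). Dusp6, the phosphatase that turns off ERK, had 10.4 ± 0.986 CPM at ZT12 and 5.74 ± 1.10 CPM at ZT6 (SD, n = 5 each; log2 fold change 0.85, SE 0.14, adjusted p = 0.00034). Maff, a small MAF factor, had 20.1 ± 2.81 CPM at ZT12 and 11.8 ± 2.18 CPM at ZT6 (log2 fold change 0.77, SE 0.12, adjusted p = 0.00036). Banp, Usp31, Gem and Cited4 rose by log2 0.89, 0.82, 0.82 and 0.73. Ccne1, whose mean lay under the naming limit of 5 CPM and which encodes cyclin E1 of the G1 to S transition, was the only call of 34 cell cycle genes, with 8.53, 5.90, 6.07, 7.23 and 5.15 CPM in the ZT12 libraries, against 2.66, 3.53, 2.35, 3.23 and 3.07 CPM in the ZT6 libraries. Ccne1 differed by log2 1.15 (SE 0.17, adjusted p = 3.09e-05). The list had a median of -0.16. Calls lost in some of the 10 runs without 1 library were those of Gem (8 runs, adjusted p up to 0.0186 without ZT6 replicate 1).

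The 12 lowest genes also included Blk, Crem, Neil1, Dclk2, Cdc14b and Klrb1. Blk, a Src family kinase of B cells, had 4.68, 6.36, 5.68, 4.28 and 4.69 CPM in the ZT12 libraries, against 7.14, 12.2, 8.80, 10.7 and 8.13 CPM in the ZT6 libraries. Blk differed by log2 -0.88 (SE 0.17, adjusted p = 0.00124). Crem, a cAMP-responsive factor, had 70.0, 79.6, 62.3, 44.7 and 67.1 CPM in the ZT12 libraries, against 118, 97.7, 121, 108 and 133 CPM in the ZT6 libraries. Crem differed by log2 -0.84 (SE 0.19, adjusted p = 0.00917). Neil1, a DNA repair glycosylase, had 73.6, 80.1, 84.9, 84.3 and 79.0 CPM in the ZT12 libraries, against 186, 129.7, 145, 116 and 117 CPM in the ZT6 libraries (log2 fold change -0.79, SE 0.15, adjusted p = 0.00374), and its ZT12 libraries lay close together while ZT6 ranged widely. Dclk2, a microtubule-associated kinase, had 30.6 ± 3.11 CPM at ZT12 and 49.9 ± 1.58 CPM at ZT6 (SD, n = 5 each; log2 fold change -0.71, SE 0.09, adjusted p = 2.23e-05), Cdc14b, a phosphatase of mitotic exit, 21.2 ± 2.04 CPM at ZT12 and 34.3 ± 0.872 CPM at ZT6 (log2 fold change -0.70, SE 0.09, adjusted p = 1.61e-05) and Klrb1, a C-type lectin-like receptor, 9.11 ± 1.43 CPM at ZT12 and 14.7 ± 2.45 CPM at ZT6 (log2 fold change -0.69, SE 0.11, adjusted p = 6.81e-05). Etl4, Rhobtb1, Myo1e, Gm10552 and Ripor2 fell by 0.84, 0.77, 0.75, 0.73 and 0.70 on the log2 scale. Coro2a, an actin-binding coronin chosen after its values were seen, had 30.2, 36.05, 34.9, 33.8 and 36.5 CPM in the ZT12 libraries, against 53.7, 49.8, 56.0, 52.7 and 58.3 CPM in the ZT6 libraries. Coro2a differed by log2 -0.66 (SE 0.06, adjusted p = 1.90e-08). Leaving out each of the 10 libraries in turn ended the call of Crem (10 runs, adjusted p up to 0.0254 without ZT12 replicate 4), Neil1 (2 runs, adjusted p up to 0.0118 without ZT12 replicate 1), Myo1e (3 runs, adjusted p up to 0.0134 without ZT12 replicate 4) and Ripor2 (7 runs, adjusted p up to 0.016 without ZT6 replicate 4) in the number of runs given.

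The step over the later light phase (ZT12 minus ZT6) was set against that over the later dark phase (ZT0 minus ZT18), which uses other animals. The 2 steps differed for 355 genes, 2.54% of those tested (edgeR, adjusted p under 0.01), and for 131 of the 640 genes called between ZT12 and ZT6. That second count shares its ZT12 and ZT6 libraries with the first call and so is not independent of it. Fkbp5 differed between the steps: it had 12.0 ± 0.854 CPM (ZT0), 13.99 ± 1.38 CPM (ZT6), 40.9 ± 15.5 CPM (ZT12) and 13.3 ± 1.21 CPM (ZT18) (SD, n = 5 each), and the difference of the steps was log2 1.69, SE 0.29, adjusted p = 0.00204. Per2 had 5.43 ± 0.638 CPM (ZT0), 6.83 ± 1.63 CPM (ZT6), 9.95 ± 0.995 CPM (ZT12) and 7.48 ± 1.13 CPM (ZT18) (difference 1.00, SE 0.19, adjusted p = 0.0014), and Ccne1 2.55 ± 0.222 CPM (ZT0), 2.97 ± 0.467 CPM (ZT6), 6.58 ± 1.32 CPM (ZT12) and 2.33 ± 0.723 CPM (ZT18) (difference 1.02, SE 0.24, adjusted p = 0.00792). Fkbp4 had 59.3 ± 2.52 CPM (ZT0), 47.2 ± 3.55 CPM (ZT6), 70.1 ± 1.67 CPM (ZT12) and 70.0 ± 5.09 CPM (ZT18) (difference 0.81, SE 0.08, adjusted p = 4.21e-08). Rbm3 had 76.6 ± 1.93 CPM (ZT0), 119 ± 3.88 CPM (ZT6), 97.3 ± 2.46 CPM (ZT12) and 59.5 ± 4.37 CPM (ZT18), so its mean at ZT12 lay below that at ZT6 while its mean at ZT0 lay above that at ZT18 (difference -0.65, SE 0.07, adjusted p = 3.60e-07). Klrb1, Neil1 and Cited4 also differed between the steps (adjusted p = 0.00143, 0.00802 and 0.00587).

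Other genes alternated, with their means at ZT0 and ZT12 on one side and those at ZT6 and ZT18 on the other. Fosb had 3908 ± 986 CPM (ZT0), 1669.6 ± 456 CPM (ZT6), 3645 ± 579 CPM (ZT12) and 2336 ± 258 CPM (ZT18) (SD, n = 5 each; difference of the steps 0.38, SE 0.27, adjusted p = 0.463). Jun had 915 ± 299.6 CPM (ZT0), 316 ± 122 CPM (ZT6), 784 ± 214 CPM (ZT12) and 414 ± 61.5 CPM (ZT18) (difference 0.17, SE 0.38, adjusted p = 0.866), Bcl2l11 91.4 ± 25.5 CPM (ZT0), 158 ± 15.5 CPM (ZT6), 95.7 ± 11.9 CPM (ZT12) and 168 ± 16.1 CPM (ZT18) (difference 0.16, SE 0.22, adjusted p = 0.764) and Crem 64.3 ± 19.3 CPM (ZT0), 116 ± 13.5 CPM (ZT6), 64.7 ± 12.9 CPM (ZT12) and 118 ± 15.2 CPM (ZT18) (difference 0.04, SE 0.26, adjusted p = 0.958). For these a difference between the steps was not detected, which does not show that the steps were equal. Of the 640 called genes, 446 (69.7%) had a ZT0 mean on the same side of the ZT18 mean as ZT12 was of ZT6, against 55.6% of all genes tested. Immediate early sums alternated in the same way, with means of 9601 ± 1993 CPM (ZT0), 5381 ± 981 CPM (ZT6), 8919 ± 1284 CPM (ZT12) and 6130.4 ± 447 CPM (ZT18). The labels name no sorting or sequencing batch, so the time of day and any such batch cannot be told apart.

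**Figure D4:**
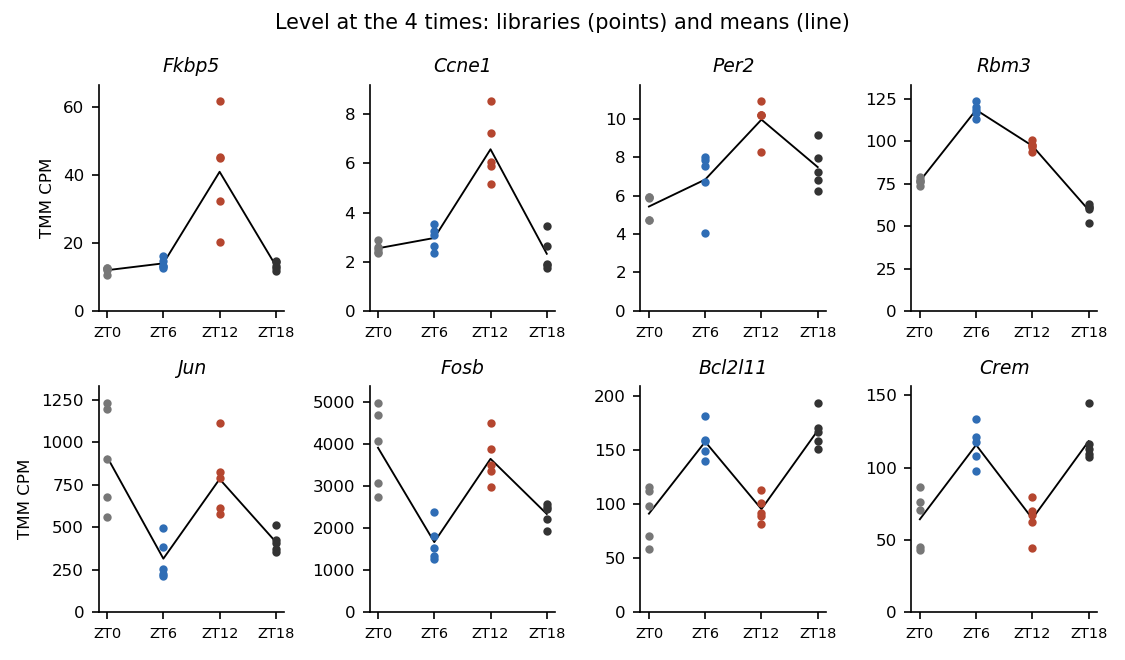
TMM CPM of 8 genes at ZT0, ZT6, ZT12 and ZT18, with 1 point per library and a line through the means of 5. In the upper row the step into ZT12 differs from that into ZT0 (Fkbp5, Ccne1, Per2 and Rbm3), and in the lower row the means at ZT0 and ZT12 lie on one side and those at ZT6 and ZT18 on the other (Jun, Fosb, Bcl2l11 and Crem).

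Several pathways had no call. No member passed among 20 tested genes of the NF-kappaB list, 18 interferon-stimulated genes, 10 genes of MHC class II presentation and 13 mitochondrially encoded proteins, with median log2 fold changes of 0.11, 0.13, 0.11 and -0.07 in edgeR. For NF-kappaB, 6 had an unadjusted p under 0.05, and DESeq2 called 1. For interferon-stimulated genes, 2 had an unadjusted p under 0.05, and DESeq2 called 1. For MHC class II, 1 had an unadjusted p under 0.05, and DESeq2 called 0. For mitochondrially encoded proteins, 4 had an unadjusted p under 0.05, and DESeq2 called 0. Of 31 autophagy genes only Wipi2 was called, lower at ZT12 (56.0 ± 4.24 CPM at ZT12 and 66.3 ± 4.34 CPM at ZT6, SD, n = 5 each), and of 77 mitochondrial ribosomal proteins Mrps25 rose while Mrpl57 and Mrpl1 fell. In the 10 runs that each left out 1 library, the call was lost for Wipi2 (4 runs, adjusted p up to 0.0239 without ZT6 replicate 1), Mrps25 (6 runs, adjusted p up to 0.0259 without ZT6 replicate 5), Mrpl57 (7 runs, adjusted p up to 0.0212 without ZT6 replicate 4) and Mrpl1 (8 runs, adjusted p up to 0.0388 without ZT12 replicate 4).

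**Figure D5:**
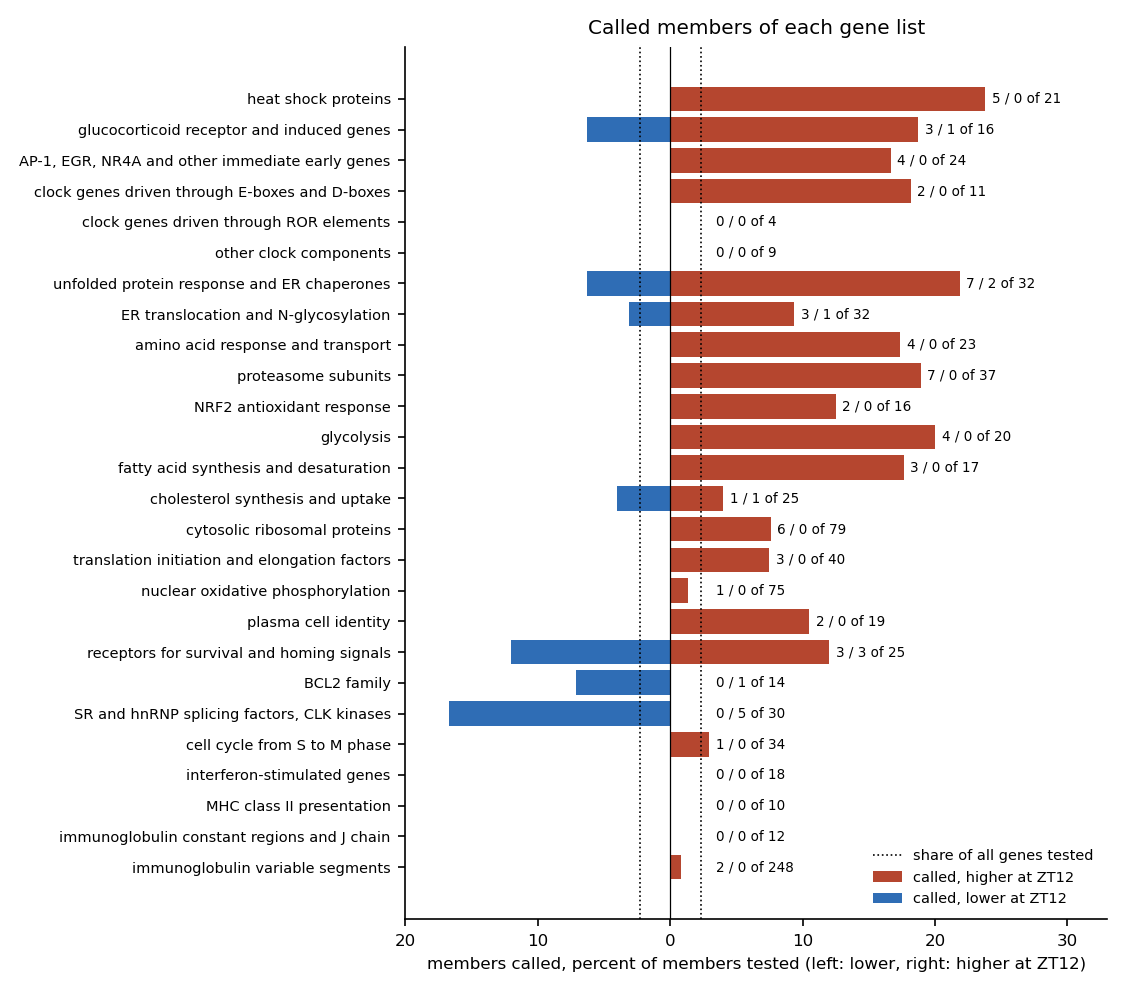
Members of 26 gene lists called higher (red, right) or lower (blue, left) at ZT12, as percent of the members tested, with the counts higher / lower of tested beside each bar. Dotted lines mark the share of all genes tested, 2.34% higher and 2.24% lower; among the lists shown, heat shock proteins have the longest bar to the right (5 of 21) and splicing factors the longest to the left (5 of 30), and the 2 cold-inducible genes, both lower, are not drawn.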

How the data were processed

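Bulk RNA-seq of sorted plasma cells was deposited by the authors as raw read counts per gene for 47069 genes, with FPKM for 18886 of them. For aligner, genome build, annotation and strand: not given in the sources used here. Symbols came from the FPKM table by Ensembl identifier, and from GENCODE M21 for genes outside it. The deposited counts of all 20 libraries were fitted in edgeR 4.0.16 (R 4.3.3, limma 3.58.1) with 4 group means, TMM scaling, filterByExpr and robust quasi-likelihood, and calls for ZT12 minus ZT6 needed a Benjamini-Hochberg adjusted p under 0.01. Standard errors come from the fold change and its F statistic. Library sums were compared by exact permutation over all splits of 5 against 5, for which the smallest p is 0.00794. No pair of replicates of 1 time matched within sampling noise. Chi-square per degree of freedom, near 1 for sampling noise alone, was 34.8 to 65.4 for the pairs with ZT12 replicate 5. For all other pairs of 1 time it was 8.57 to 19.7. The cause of this departure of ZT12 replicate 5 was not tested. Depth was 35570619 to 68018407 counts per library. DESeq2 1.42.0, other scalings, filters, thresholds and libraries left out were tried as alternatives. Libraries are separate animals.

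Named genes were the 12 highest and 12 lowest fold changes among 481 called genes (no antibody gene, groups apart, mean over the 10 libraries 5 CPM or more), the tested clock genes, up to 4 called members per list, the genes the study plotted, and Igha, Igkc and Jchain. Others, such as the heat shock and immediate early genes without a call, were named after their values were seen. A few genes that the rule names are not reported here. The comparison, its members and the 47 gene lists were chosen with earlier results of these data known, so no count over a list is independent support. Promoters are RefSeq windows of GRCm38.p6, 250 bases before to 50 after each start. The analysis used Python 3.11.15, numpy 2.4.6, pandas 2.3.3, scipy 1.17.1 and matplotlib 3.10.9.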

Additional observations from a re-analysis of the deposited data

Results flagged for a closer look

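In 19 of 320 groups of 5 libraries examined, 1 library stood apart from the other 4 of its time by Dixon's 95% criterion, and chance alone gives about 1 in 20. Usp31 had 9.36 CPM in ZT12 replicate 1, with the rest of that time at 7.35 to 7.82 CPM. Etl4 had 24.5 CPM in ZT12 replicate 5, with the rest of that time at 12.7 to 16.1 CPM. Per2 had 8.25 CPM in ZT12 replicate 1, with the rest of that time at 10.2 to 10.9 CPM. Ciart had 1.88 CPM in ZT12 replicate 2, with the rest of that time at 2.53 to 2.76 CPM. Cry1 had 17.7 CPM in ZT6 replicate 3, with the rest of that time at 7.25 to 10.2 CPM. Gpi1 had 55.0 CPM in ZT12 replicate 3, with the rest of that time at 59.5 to 60.8 CPM. Eif2ak3 had 235 CPM in ZT12 replicate 4, with the rest of that time at 279 to 294 CPM. Stt3a had 221 CPM in ZT12 replicate 1, with the rest of that time at 199 to 204 CPM. Stt3a had 197 CPM in ZT6 replicate 5, with the rest of that time at 171 to 176 CPM. Atp5g1 had 22.004 CPM in ZT6 replicate 4, with the rest of that time at 18.9 to 19.7 CPM. Ahsa1 had 32.99 CPM in ZT12 replicate 5, with the rest of that time at 23.1 to 25.8 CPM. Ahsa1 had 17.2 CPM in ZT6 replicate 1, with the rest of that time at 20.5 to 21.4 CPM. Psmc1 had 41.9 CPM in ZT12 replicate 5, with the rest of that time at 47.0 to 48.0 CPM. Hsp90ab1 had 987 CPM in ZT12 replicate 5, with the rest of that time at 547 to 658 CPM. Fos had 859 CPM in ZT12 replicate 4, with the rest of that time at 448 to 559 CPM. Fos had 446 CPM in ZT6 replicate 2, with the rest of that time at 193 to 253 CPM. Hspa5 had 4747 CPM in ZT12 replicate 4, with the rest of that time at 4137 to 4251 CPM. Itgb1 had 20.2 CPM in ZT6 replicate 5, with the rest of that time at 22.8 to 23.8 CPM. Cd69 had 569 CPM in ZT12 replicate 5, with the rest of that time at 469 to 498 CPM.

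For 36 of the 149 named genes, the change ZT12 minus ZT6 differed from the change ZT0 minus ZT18 in the edgeR test of the difference itself (adjusted p under 0.01, at most 0.00847 among them). The log2 difference was above 0 for Fkbp5 1.69, Ccne1 1.02, Per2 1.00, Stip1 0.84, Sgk1 0.83, Cited4 0.83, Fkbp4 0.81, Atf3 0.79, Scd2 0.74, Txnrd1 0.70, Ahsa1 0.65, Prdx1 0.53, Itgb1 0.53, Aldoa 0.49, Eno1 0.49, Psmd1 0.48, Canx 0.45, Psmd7 0.41, Psmd12 0.41, Psmd11 0.38, Pfkl 0.37, Eif5b 0.35, Rps4x 0.33, Slc3a2 0.32, Acly 0.32, P4hb 0.30, Rpn2 0.29 and Pdia4 0.27. It was below 0 for Mt1 -1.26, Neil1 -1.05, Mt2 -0.82, Klrb1 -0.79, Rbm3 -0.65, Mrpl57 -0.58, Scap -0.34 and Hnrnpa1 -0.28. For the other 113 named genes no difference was called, which does not show that the steps were alike.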

How the results depend on the processing

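The count of 640 called genes was within 1.5 times under DESeq2 size factors (636), TMM without antibody genes (625), no filter (619), a total of at least 10 counts (620), the 10 libraries alone (547) and library totals (747), where 41 were higher and 706 lower and 354 of the 640 (55.3%) were shared. DESeq2 called 955, 504 of them higher, and of the 640 it shared 639. An adjusted p under 0.05 gave 1384 (721 higher, 663 lower), and a fold of at least 1.5 gave 98 (44 higher, 54 lower). Without the libraries highest in heat shock RNA at each time, chosen after seeing the data, 393 were called (188 higher, 205 lower). Leaving out 1 library gave 427 to 554 calls, 210 to 277 higher and 199 to 293 lower. The fewest were called without ZT12 replicate 1 (427, 210 of them higher), and the fewest lower without ZT12 replicate 4 (199). The difference of the steps gave 355 calls, 572 with library totals, 562 with DESeq2, and 251 to 385 with 1 library left out. The cause of these differences was not tested.

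Members called higher in the unfolded protein response list numbered 0 with library totals, 4 without a filter, 4 without the pair of libraries and 12 at adjusted p under 0.05 (5 to 9 with 1 library left out). For immediate early genes these were 2 with the 10 libraries alone, 2 without the pair, 8 with DESeq2 and 8 at 0.05 (2 to 6). Heat shock calls were 2 with library totals (4 to 5). Proteasome calls were 0 with library totals, 4 without the pair and 11 at 0.05 (4 to 8). Splicing factors called lower were 9 with library totals and 10 at 0.05 (3 to 5). The difference in antibody share ranged from 1.22 to 2.67 points with 1 library left out. Glucocorticoid calls were 2 with library totals and 2 with the 10 libraries alone (3 to 4 with 1 library left out).

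No called gene among those named changed direction under any alternative tried. Genes near 0 did: log2 fold changes were -0.13 for Cry2, -0.038 for Nr1d1, -0.10 for Cry1, -0.068 for Xbp1, -0.029 for Hk2, -0.031 for Hspa5, -0.014 for Nr3c1, -0.028 for Mcl1 and -0.036 for Jchain with library totals. Cry2 was at -0.00123 with TMM without antibody genes, -0.000782 with the 10 libraries alone, -0.000738 with the replicate block and -0.011 without the pair. With 1 library left out the ranges were -0.071 to 0.017 for Per3, -0.061 to 0.035 for Cry2, -0.081 to 0.28 for Cry1, -0.040 to 0.023 for Prdm1, -0.037 to 0.0040 for Tnfrsf17 and -0.54 to 0.25 for the Paneth and goblet marker sum.

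Replicate numbers did not pair the samples: deviations of same-numbered libraries correlated at 0.12, -0.19, 0.06, 0.04 and -0.07 over 10565 genes. With the number as a replicate block, 633 genes were called, and 580 of the 640 remained. Depth limits the genes with few counts most.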
